A study of Rattus norvegicus with 31 samples.

Results

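The mitochondrial ribosome and the mitochondrial protein import machinery were followed through 94 genes whose symbol begins with Mrpl, Mrps, Timm or Tomm, of the 9037 genes that a probeset of the array names alone. The members were chosen by symbol, with earlier results of these data known. They comprise 46 Mrpl genes (named for the large ribosomal subunit) and 27 Mrps genes (named for the small subunit). The import genes are 12 Timm genes (named for the inner membrane) and 9 Tomm genes (named for the outer membrane). The members are read by 111 of the 16204 probesets, which are groups of short probes that together measure one mRNA. A family is defined by symbol, and the place of each protein was not checked. A gene is given at its probeset with the highest mean over all arrays, and the 15 genes with several probesets are compared across them further on. A symbol is not a function, and the rule also takes in Timmdc1, an assembly factor of respiratory complex I, and Tomm34, a cytosolic co-chaperone. The import subunits Timm23, Timm17b and Timm44 and the ribosomal gene Mrpl11 had no probeset of their own in the annotation used here.

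RNA came from CA3, a field of pyramidal neurons in the hippocampus, dissected by hand from 31 male Long-Evans rats about 2 years old, with the RNA of 1 rat on each array. Aged unimpaired (AU) rats had learned a hidden platform in a water maze as well as young adults, and aged impaired (AI) rats had not. About 1 month later every rat swam 8 trials to a visible platform at a new site, either with a fixed platform and prominent cues around the pool (spatial task, S) or with a platform that moved and the cues taken away (non-spatial task, NS), and CA3 was taken about 2 hours after the start. The arrays were 8 of AU-S, 8 of AI-S, 8 of AU-NS and 7 of AI-NS. With the tasks pooled the phenotypes are called AU-act (16 arrays) and AI-act (15), and every rat had been trained and none was young or untrained.

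Mitochondria carry a small genome of their own, which encodes core subunits of the respiratory chain, and the mitochondrial ribosome translates those mRNAs. All proteins of that ribosome are encoded in the nucleus, made in the cytosol and imported. The TOM complex of the outer membrane receives and passes precursors, the TIM23 complex takes those with a presequence across the inner membrane, the TIM22 complex inserts carrier proteins into it, and small Timm chaperones escort hydrophobic cargo between the membranes. Neurons of CA3 depend on respiration for the cost of synaptic transmission.

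The values are log2 gcRMA intensities, so that a difference is the log2 of a fold change. Array medians lay between 8.97 and 9.14, the lowest correlation between a pair of arrays was 0.972, and no pair was a duplicate. All 6 CA3 pyramidal markers were measured, with a mean between 11.70 and 11.76 in each of the 4 groups. The 6 general neuron markers averaged 12.88 ± 0.056 in AU-act rats (SD, n = 16) and 12.75 ± 0.15 in AI-act rats (SD, n = 15), and they were higher in AU than in AI rats after either task (12.87 in AU-S and 12.76 in AI-S, 12.89 in AU-NS and 12.74 in AI-NS). Groups were compared with limma over all 16204 probesets with Benjamini-Hochberg adjustment, and a gene passed at an adjusted p under 0.05 with the tasks pooled and under 0.1 within a task or phenotype. A bulk measure cannot tell fewer cells of a type from less RNA per cell.

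Most members went up and down together from rat to rat. After each gene's group means were subtracted, the median Pearson correlation over the 31 arrays was 0.576 for the 4371 pairs of members, against 0.039 over all pairs of genes. It was 0.590 among the Mrpl genes, 0.593 among the Mrps genes, 0.485 among the Timm genes and 0.390 among the Tomm genes. These values share arrays and array preparation and are a description without a test. Mrpl53, a protein of the large subunit's stalk, followed the mean of the other members most closely (r = 0.945), ahead of Timm8b, a small chaperone of the intermembrane space (0.932), and Mrps33, a small-subunit protein (0.930). The median over members was 0.778. A few members did not follow the rest. Tomm70, the receptor for carrier precursors, had an r of -0.225, Mrpl43 of -0.211, Mrps31 of -0.140, Mrpl51 of -0.084 and Timm29, a subunit of the TIM22 complex, of -0.019. Since the members moved largely as a block, the number that lie on one side of 0 in a comparison is not a count of independent genes.

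**Figure D1:**
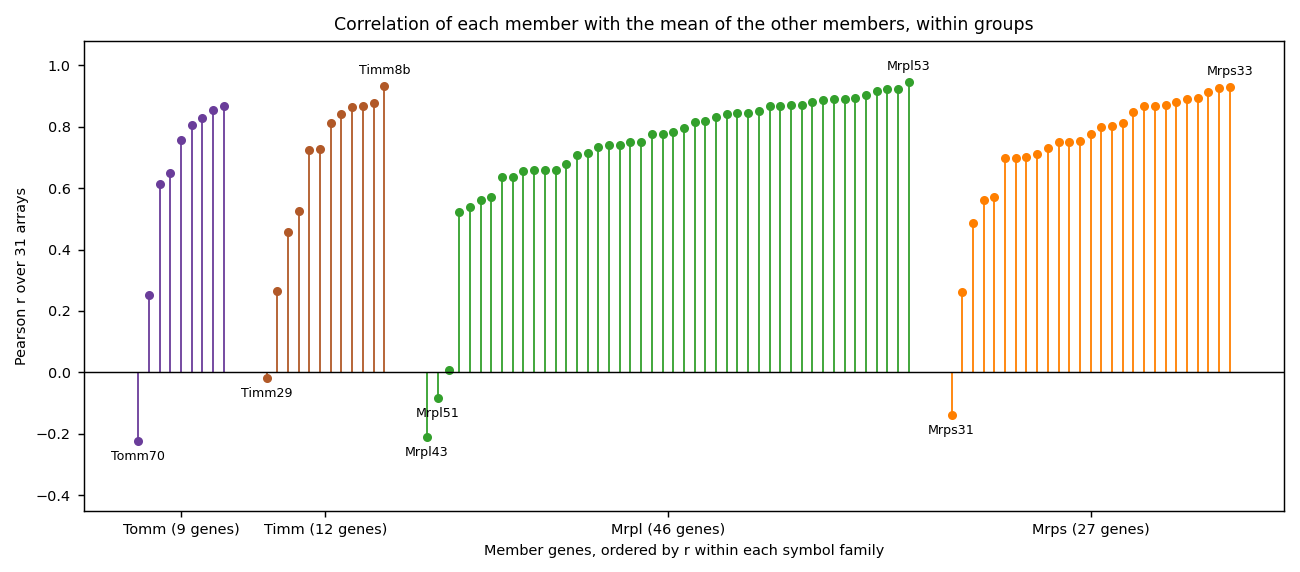
Pearson correlation (vertical axis) of each member with the mean of the other members over 31 arrays, after group means were subtracted, ordered within the 4 symbol families (horizontal axis). Mrpl53 reached 0.945, while Tomm70, Mrpl43, Mrps31, Mrpl51 and Timm29 lay below 0.

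Promoters of nuclear genes for mitochondrial proteins are known for a few short motifs, bound by NRF-1, by ETS factors that include NRF-2 (GABP) and by YY1. A RefSeq promoter of 250 bases before to 50 bases after the start (build GRCr8) was found for 78 of the 94 members, and both strands were searched for GCGCATGCG (NRF-1), CCGGAAG (ETS) and AAGATGGCG (YY1). The ETS letters were in 34.6% of the member promoters, against 18.8% of the promoters of 7575 measured genes and 9.2% of all 27457 promoters. The YY1 letters were in 12.8% of member promoters, against 4.3% and 1.9%, and the NRF-1 letters in 7.7%, against 3.8% and 1.7%. At least 1 of the 3 was in 39 of the 78 member promoters, against 24.7% of measured genes and 12.0% of all promoters. The promoters below belong to Mrpl53, the member that best followed the rest, and to Tomm20, a receptor at the core of the TOM complex. Those of Mrpl30 and Mrpl50 are also shown. Both genes were among the 3 members with the smallest p between AU-S and AI-S, and neither passed with limma. Capitals mark matches on either strand. They lie before the start in Mrpl53 (chr4:117172793-117173092, plus strand) and Tomm20 (chr19:71832371-71832670, minus strand) and after it in Mrpl30 (chr9:47620977-47621276, plus strand) and Mrpl50 (chr5:68668038-68668337, minus strand), and a match is a description of letters and not a bound site.
Mrpl53: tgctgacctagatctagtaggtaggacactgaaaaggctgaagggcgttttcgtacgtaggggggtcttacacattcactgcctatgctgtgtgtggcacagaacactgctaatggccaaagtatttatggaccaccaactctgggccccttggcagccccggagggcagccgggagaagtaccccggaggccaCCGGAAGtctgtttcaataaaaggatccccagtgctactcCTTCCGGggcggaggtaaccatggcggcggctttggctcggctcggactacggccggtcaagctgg
Tomm20: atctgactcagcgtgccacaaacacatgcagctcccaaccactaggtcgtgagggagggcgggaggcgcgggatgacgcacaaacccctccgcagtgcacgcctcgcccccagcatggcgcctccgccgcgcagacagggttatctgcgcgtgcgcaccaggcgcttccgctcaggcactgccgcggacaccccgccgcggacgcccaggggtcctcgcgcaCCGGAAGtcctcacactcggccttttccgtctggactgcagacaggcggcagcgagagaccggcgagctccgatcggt
Mrpl30: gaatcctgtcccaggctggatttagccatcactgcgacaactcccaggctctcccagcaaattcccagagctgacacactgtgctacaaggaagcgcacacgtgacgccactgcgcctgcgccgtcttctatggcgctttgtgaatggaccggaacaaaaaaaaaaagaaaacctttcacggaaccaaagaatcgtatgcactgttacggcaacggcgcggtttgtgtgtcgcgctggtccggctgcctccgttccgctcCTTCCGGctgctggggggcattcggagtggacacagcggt
Mrpl50: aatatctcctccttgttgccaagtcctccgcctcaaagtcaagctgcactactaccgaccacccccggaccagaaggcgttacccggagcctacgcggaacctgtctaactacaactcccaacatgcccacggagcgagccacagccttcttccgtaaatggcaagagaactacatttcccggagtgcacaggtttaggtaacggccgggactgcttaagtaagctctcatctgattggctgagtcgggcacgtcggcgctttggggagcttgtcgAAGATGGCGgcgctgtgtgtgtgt

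With the tasks pooled, no member passed between AU-act and AI-act rats, in either direction, while 5.00% of all probesets passed as higher in AU-act and 0.512% as lower. At an unadjusted p under 0.05, 2 members were on the higher side and 8 on the lower side, where 14.1% and 5.47% of all probesets lie. SAM, the statistic of the study's methods, called 1 member as higher, Timm29, and none as lower, where it called 8.13% and 1.72% of all probesets. The sign leaned to one side, with 67 of 94 members below 0, against 46.7% of all probesets. Of all genes taken at their brightest probeset, as the members are, 51.7% were above 0. The median member difference was -0.048, and the median of all probesets was 0.007. These are small values, and the within-group SD of the array mean over all members was 0.146. The lean of the signs turned round when the gap between the 3' and 5' ends of the hexokinase control was a covariate. Then 68 of 94 members were above 0 (median 0.026), against 53.4% of all probesets (median 0.0075). The lean kept its side under median centring and quantile normalization, with 18 of 94 above 0 in each, against 47.3% and 45.9% of all probesets.

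**Figure D2:**
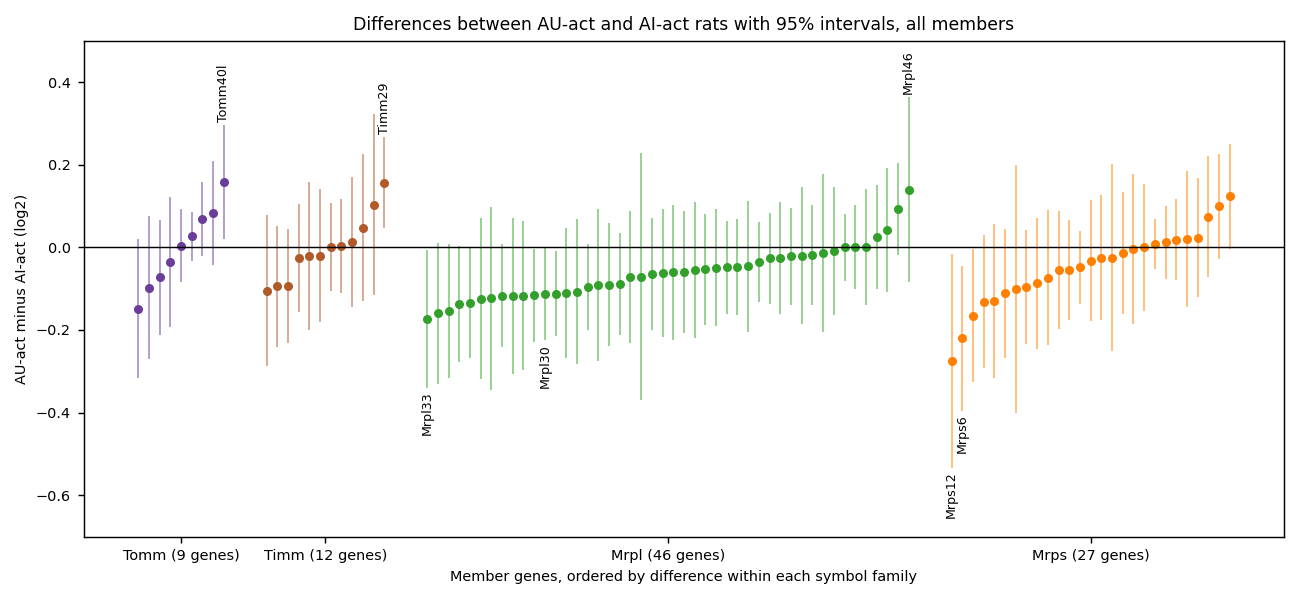
AU-act minus AI-act difference on the log2 scale (vertical axis) for the 94 members, ordered within symbol families (horizontal axis). Points are estimates and lines their 95% intervals (16 against 15 arrays). No member passed the adjusted threshold, and 39 of 46 Mrpl genes lie below 0.

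The 8 genes on the lower side at an unadjusted p under 0.05 were all ribosomal (Mrpl1, Mrpl30, Mrpl33, Mrpl45, Mrpl47, Mrps6, Mrps12 and Mrps18c), and the 2 on the higher side were import genes (Tomm40l and Timm29). By family, 5 of 9 Tomm genes were above 0 (median 0.0044), 6 of 12 Timm genes (median -0.0099), 7 of 46 Mrpl genes (median -0.061) and 9 of 27 Mrps genes (median -0.033). The difference between families was not tested.

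At the outer membrane, the receptors Tomm20 and Tomm70 had a smaller SE at their brightest probesets than Tomm22 and the pore. Tomm20, which binds presequences, differed by 0.0044 (SE 0.044), Tomm22, the central receptor, by -0.073 (SE 0.068), and Tomm70 by 0.026 (SE 0.029). Tomm40, the pore itself, differed by 0.083 (SE 0.062). The 95% interval of Tomm20 was -0.085 to 0.093, so a difference above about 0.1 in either direction lies outside it. The small subunits that stabilize the pore had differences of -0.15 (Tomm5, SE 0.082), -0.035 (Tomm6, SE 0.077) and -0.097 (Tomm7, SE 0.085), and Tomm34 had 0.069 (SE 0.044). Tomm40l, a close relative of the pore protein, ranged from 6.17 to 6.84 with a median of 6.42 in AU-act rats, against 5.92 to 6.70 with a median of 6.25 in AI-act rats. The ranges overlapped, although 14 of 16 AU-act arrays lay above the AI-act mean. Its difference was 0.16 (SE 0.068, adjusted p = 0.186, limma).

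Among the inner membrane genes, Timm29 came closest to the threshold. It ranged from 11.13 to 11.77 with a median of 11.34 in AU-act rats, against 10.93 to 11.41 with a median of 11.16 in AI-act rats. The groups overlapped, and 14 of 16 AU-act arrays lay above the AI-act mean. The difference was 0.16 (SE 0.054, 95% interval 0.046 to 0.27, adjusted p = 0.0834 by limma). It passed under SAM (q = 0.034) and without AI-S replicate 7 (0.17, adjusted p = 0.045), and did not pass when any other single array was left out. A second, dimmer Timm29 probeset, looked up after its values were seen, gave -0.016. It did not follow the first over the arrays after group means were subtracted (r = -0.081). In the TIM23 complex, Timm17a (a channel subunit) differed by 0.00054 (SE 0.052), Timm50 (the presequence receptor) by 0.10 (SE 0.11) and Timm21 by -0.025 (SE 0.064). Timm22, the carrier translocase, differed by -0.020 (SE 0.079). The small chaperones lay between -0.105 for Timm10b (SE 0.090) and 0.048 for Timm13 (SE 0.087), with Timm8b at -0.094, Timm9 at -0.095, Timm8a1 at -0.022 and Timm10 at 0.013.

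The ribosomal genes held the most negative differences. Mrps12, a small-subunit protein near the decoding centre, ranged from 7.45 to 8.92 with a median of 8.45 in AU-act rats, against 8.25 to 9.18 with a median of 8.57 in AI-act rats. Its difference was -0.27 (SE 0.13, adjusted p = 0.223, limma), and 12 of 16 AU-act arrays lay below the AI-act mean. Mrps6, another small-subunit protein, had a median of 10.11 (9.52 to 10.49) in AU-act rats and of 10.31 (9.91 to 10.58) in AI-act rats. Its difference was -0.22 (SE 0.086, adjusted p = 0.138), again with 12 of 16 arrays below the AI-act mean and with ranges that overlapped. In the large subunit, Mrpl33 had the most negative difference (-0.17, SE 0.082) and Mrpl46 the most positive (0.14, SE 0.11). The other core ribosomal genes named here lay between -0.073 and 0.025. Mrpl12, a stalk protein, had 0.025 (SE 0.062), Mrpl3 -0.036 (SE 0.048), Mrps5 0.0082 (SE 0.030) and Mrps16 -0.073 (SE 0.080). The half-width of the 95% interval over the 94 members had a median of 0.147, from 0.0588 for Tomm70 to 0.301 for Mrps34.

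RNA integrity was read from controls that measure opposite ends of the same mRNA, where a wider gap between the 3' and the 5' signal goes with shorter RNA. The gap for Gapdh and beta-actin averaged 1.45 ± 0.10 in AU-act rats (SD, n = 16) and 1.59 ± 0.13 in AI-act rats (SD, n = 15), a difference of -0.14 (two-sided permutation test, p = 0.00078), and for hexokinase the difference was -0.38 (permutation test, p = 6e-05). With the tasks pooled, only the hexokinase covariate, of the alternatives run, changed the sign of the median member difference. With the Gapdh and beta-actin control as a covariate it was -0.043, and with dentate and CA1 marker scores as covariates -0.026. With the hexokinase covariate no probeset of the whole table passed. The neuron markers, higher in AU-act, ran against the lean of the members, and their part in it was not tested. The share of RNA length in the member differences cannot be told apart from phenotype in these arrays.

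**Figure D3:**
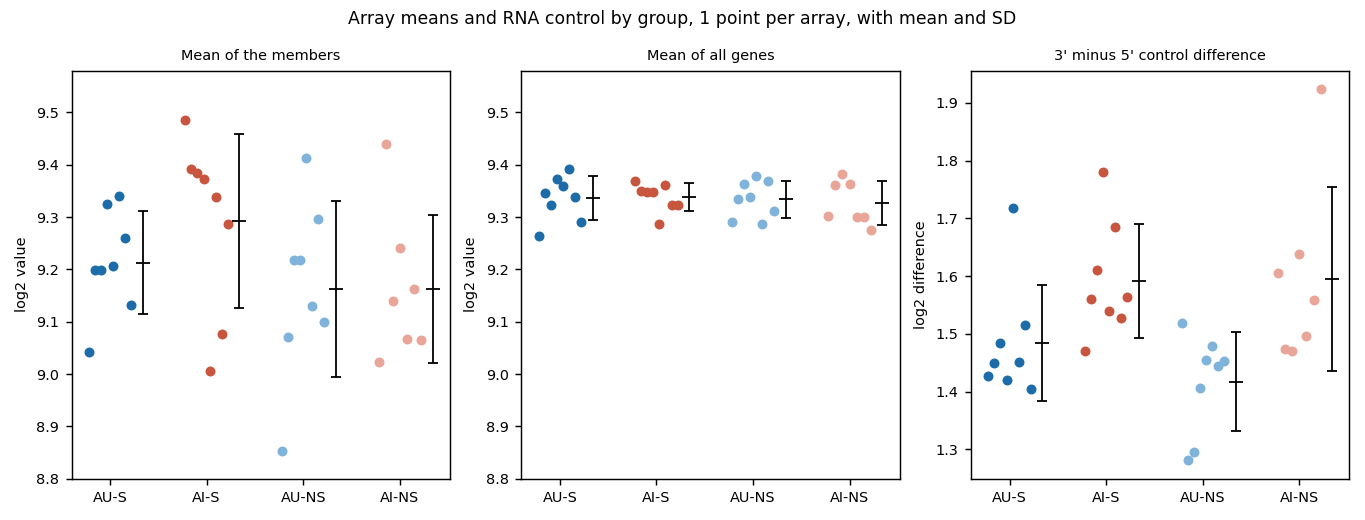
Mean over the 94 members, mean over all 9037 genes and the gap between the 3' and 5' controls for Gapdh with beta-actin (vertical axes, log2 scale), with 1 point per array and the groups in the order AU-S, AI-S, AU-NS, AI-NS. Bars give the mean and SD of 8, 8, 8 and 7 arrays. The member mean spread over 8.85 to 9.49, while the mean of all genes stayed between 9.26 and 9.39.

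After S training no member passed either, where 0.389% of all probesets passed as higher in AU-S than in AI-S and 0.0247% as lower. At an unadjusted p under 0.05, 1 member was on the higher side (Timm29) and 11 on the lower side, where 8.42% and 3.83% of all probesets lie. SAM called 1 member as lower, Mrpl30, and none as higher, where it called 0.648% and 2.93% of all probesets. In sign, 71 of 94 members were below 0, against 46.1% of all probesets, and the median member difference was -0.076 (0.011 over all probesets). Of all genes at their brightest probeset, 51.5% were above 0. The AU-S and AI-S arrays are part of the pooled comparison, so the lean here is not independent of the pooled one. It lay in the ribosomal genes, with 41 of 46 Mrpl genes (median -0.100) and 20 of 27 Mrps genes (median -0.074) below 0. Tomm genes had a median of 0.0013 and Timm genes of -0.0022.

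Mrpl30, a large-subunit protein, ranged from 8.69 to 9.003 with a median of 8.91 in AU-S rats, against 8.96 to 9.30 with a median of 9.05 in AI-S rats. All 8 AU-S arrays lay below the AI-S mean, and the ranges met only at their edges. The difference was -0.20 (SE 0.060, 95% interval -0.33 to -0.073, adjusted p = 0.179 by limma, q = 0.071 by SAM). Mrpl50, another large-subunit protein, had a median of 6.81 (6.26 to 7.45) in AU-S rats and of 7.17 (6.59 to 7.88) in AI-S rats. Its difference was -0.48 (SE 0.19, adjusted p = 0.317), with 7 of 8 AU-S arrays below the AI-S mean. Mrps6 differed by -0.30 (SE 0.12, adjusted p = 0.329). The other ribosomal genes on the lower side were Mrpl1, Mrpl14, Mrpl16, Mrpl37, Mrps17, Mrps18c, Mrps21 and Mrps24, between -0.15 and -0.29. Mrps17 passed in one setting, without AI-S replicate 7 (-0.27, adjusted p = 0.0889).

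Markers of dentate granule cells, which border CA3, went with this comparison. Of the 7 listed, 2 were measured (Prox1 and Calb1), and their mean was 9.50 (9.19 to 9.95) in AU-S rats, 9.95 (9.27 to 10.44) in AI-S rats, 9.66 (9.44 to 9.79) in AU-NS rats and 9.46 (9.09 to 10.15) in AI-NS rats. AU-S minus AI-S was -0.51 for Prox1 and -0.39 for Calb1, and neither passed (adjusted p = 0.369 and 0.209, limma). With dentate and CA1 scores as covariates the median member difference was -0.097 (0.022 over all probesets). Then 21 of 94 were above 0, against 57.4% of all probesets. The hexokinase gap, AU-S minus AI-S, was -0.40 (exact permutation test, p = 0.000777). With it as a covariate 70 of 94 members were above 0, against 59.5% of all probesets. The median member difference was then 0.093, and the median of all probesets 0.035.

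After NS training the signs of the members were nearly even without covariates. None passed between AU-NS and AI-NS, where 0% of all probesets passed in either direction with limma. SAM called none of the members, where it called 2.27% of all probesets as higher and 0.309% as lower. At an unadjusted p under 0.05, 3 members were on the higher side and none on the lower side, where 8.55% and 2.91% of all probesets lie. Below 0 were 48 of 94 members, against 47.3% of all probesets, and the median was -0.0052. By family, 20 of 46 Mrpl genes (median -0.017) and 14 of 27 Mrps genes (median 0.0028) were above 0. Tomm genes had a median of 0.0084 and Timm genes of 0.011. The even split did not hold with every covariate. With the Gapdh and beta-actin control as a covariate 23 of 94 were above 0 (median -0.066), against 47.1% of all probesets. With the dentate and CA1 scores the count was likewise 23 of 94 (median -0.058), against 54.2%. With hexokinase the count was 55 of 94 (median 0.018), against 49.3%. The gap for Gapdh and beta-actin, AU-NS minus AI-NS, was -0.18 (exact permutation test, p = 0.00591), and that for hexokinase was -0.36 (exact permutation test, p = 0.018). Tomm40l had a median of 6.45 (6.20 to 6.84) in AU-NS rats and of 6.17 (5.92 to 6.43) in AI-NS rats, with all 8 AU-NS arrays above the AI-NS mean, and differed by 0.26 (SE 0.095, adjusted p = 0.302). Mrpl10, a protein of the large subunit, differed by 0.20 (SE 0.077) and Mrpl50 by 0.37 (SE 0.16). Timm29 differed by 0.13 (SE 0.062), with all 8 AU-NS arrays above the AI-NS mean.

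**Figure D4:**
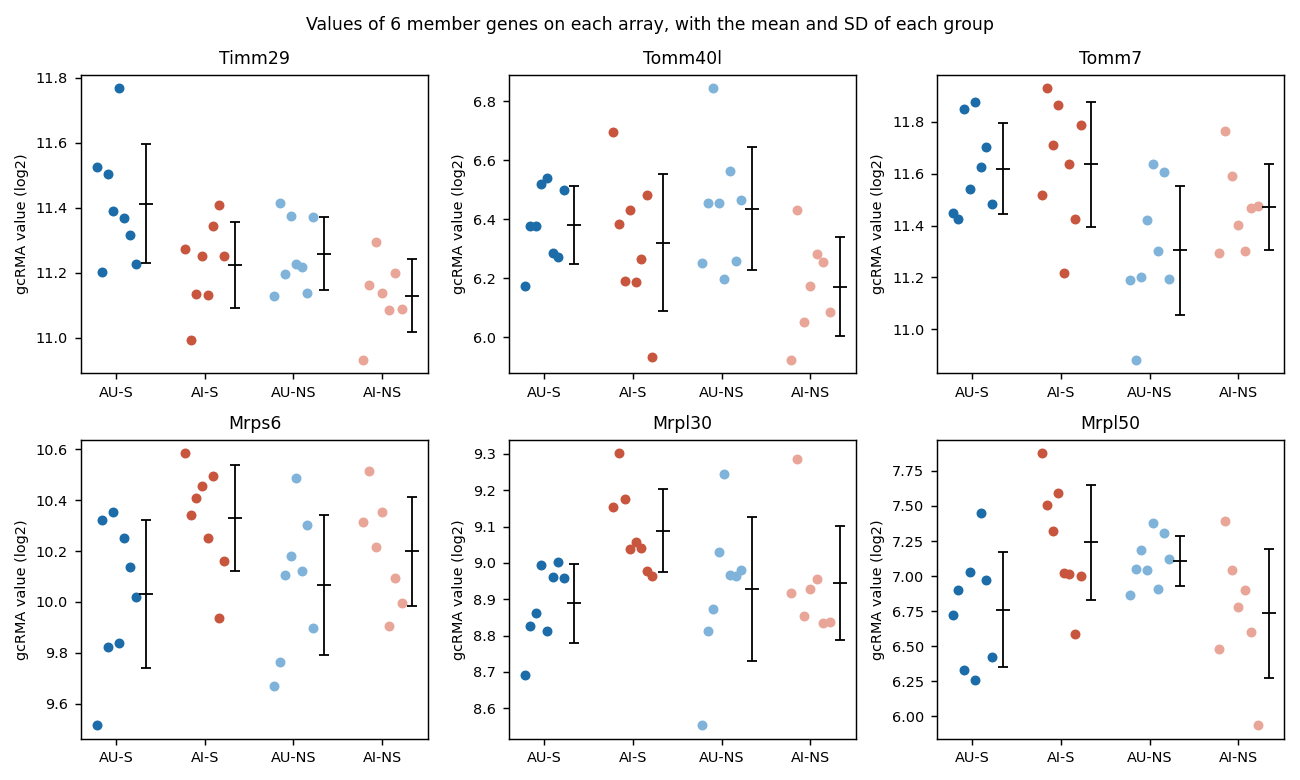
Log2 gcRMA values of Timm29, Tomm40l, Tomm7, Mrps6, Mrpl30 and Mrpl50 (vertical axes), with 1 point per array for AU-S, AI-S, AU-NS, AI-NS and the mean and SD of 8, 8, 8 and 7 arrays. The AU-S and AI-S ranges of Mrpl30 met only at their edges, and Mrpl50 differed by -0.48 between AU-S and AI-S and by 0.37 between AU-NS and AI-NS, neither past the threshold.

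The differences between AU and AI rats were then set side by side for the tasks. Over the 94 members, 41 were below 0 after both tasks, 16 above 0 after both, 30 below 0 after S and above 0 after NS, and 7 the other way, with a correlation of 0.18 across members. The difference of the differences, AU-S minus AI-S less AU-NS minus AI-NS, was tested for each gene in a single model. No member passed, with 0% of all probesets past the threshold. At an unadjusted p under 0.05 only Mrpl50 was on the lower side and none was on the higher side, where 1.28% and 1.17% of all probesets lie. In sign, 73 of 94 members were below 0, against 51.3% of all probesets, with a median of -0.079, and 38 of 46 Mrpl and 23 of 27 Mrps genes were below 0. With dentate and CA1 scores as covariates the median was -0.030 and 40 of 94 were above 0.

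**Figure D5:**
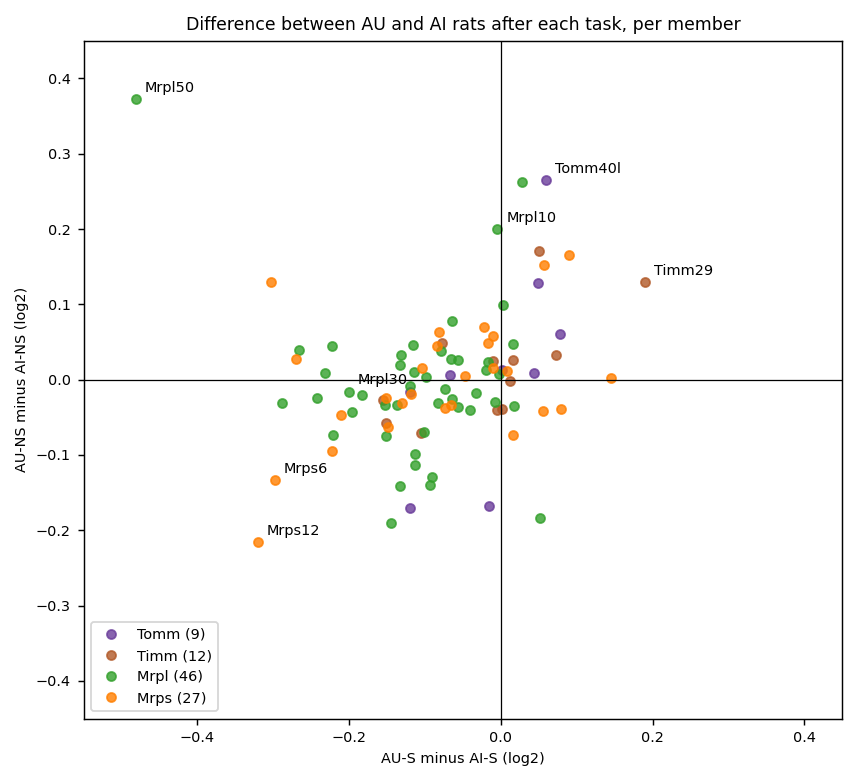
AU-S minus AI-S difference (horizontal axis) against AU-NS minus AI-NS difference (vertical axis), both on the log2 scale, 1 point per member, coloured by symbol family. Mrpl50 stands apart at -0.48 and 0.37, and 73 of 94 members had a lower difference after S than after NS.

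Mrpl50 had the largest such value of the members, -0.85 (SE 0.26, 95% interval -1.38 to -0.32, unadjusted p = 0.00261, adjusted p = 1.00 by limma). Its medians were 6.81 in AU-S, 7.17 in AI-S, 7.08 in AU-NS and 6.78 in AI-NS. The AU-NS arrays were the tightest (6.86 to 7.38) and the AI-NS arrays the widest (5.94 to 7.39). A second Mrpl50 probeset, looked up after its values were seen, gave -0.36 (SE 0.27), with -0.053 after S and 0.31 after NS. Its correlation with the first over the arrays, after group means were subtracted, was 0.309.

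Compared between tasks, AI-S rats stood highest. In 65 of 94 members (69.1%) AI-S had the highest mean of the 4 groups, against 24.2% of all genes, while AU-S had it in 21, AU-NS in 5 and AI-NS in 3. The member mean per array was 9.21 ± 0.10 in AU-S (SD, n = 8), 9.29 ± 0.17 in AI-S (SD, n = 8), 9.16 ± 0.17 in AU-NS (SD, n = 8) and 9.16 ± 0.14 in AI-NS (SD, n = 7). All of these group means lie within 1 SD of each other. Of the AI-S arrays, 6 lay between 9.29 and 9.49, and the other two were at 9.01 and 9.08.

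Between AI-S and AI-NS no member passed (0% of all probesets passed in either direction with limma, and 0% with SAM). Above 0 were 88 of 94 members (median 0.13), against 47.3% of all probesets and 52.3% of all genes at their brightest probeset. At an unadjusted p under 0.05, 10 were on the higher side and none on the lower side, where 2.07% and 2.02% of all probesets lie. All 12 Timm genes, 8 of 9 Tomm, 43 of 46 Mrpl and 25 of 27 Mrps genes were above 0. Mrpl12 had a median of 10.54 (10.33 to 10.70) in AI-S rats and of 10.37 (10.17 to 10.42) in AI-NS rats, with 7 of 8 AI-S arrays above the AI-NS mean, and differed by 0.20 (SE 0.063, adjusted p = 0.862). Mrps21, a small-subunit protein, had a median of 9.98 (9.85 to 10.13) in AI-S rats and of 9.69 (9.60 to 10.16) in AI-NS rats, and all 8 AI-S arrays lay above the AI-NS mean (0.22, SE 0.076). Mrpl50 differed by 0.51 (SE 0.21). The dentate markers differed the same way, by 0.60 for Prox1 and 0.38 for Calb1, and with the dentate and CA1 scores as covariates the median member difference was 0.13. Their part beyond that was not tested.

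Between AU-S and AU-NS no member passed (0% of all probesets passed in either direction with limma, and 0% with SAM). Above 0 were 68 of 94 members (median 0.053), against 47.0% of all probesets and 50.8% of all genes at their brightest probeset. At an unadjusted p under 0.05, 8 were on the higher side and 5 on the lower side, where 3.51% and 4.62% of all probesets lie. Mrps25, a small-subunit protein, had a median of 10.06 (9.77 to 10.30) in AU-S rats and of 9.74 (9.52 to 9.94) in AU-NS rats, with all 8 AU-S arrays above the AU-NS mean. It differed by 0.28 (SE 0.074, adjusted p = 0.605). Tomm7, a small subunit of the TOM complex, had a median of 11.58 (11.43 to 11.88) in AU-S rats and of 11.25 (10.88 to 11.64) in AU-NS rats, again with all 8 AU-S arrays above the AU-NS mean, and differed by 0.32 (SE 0.10). Timm10 and Timm17a were on the same side (0.20 and 0.14), while Mrpl1 (-0.18, SE 0.063), Mrpl16, Mrpl3, Mrpl37 and Mrpl50 were on the lower side. Without AU-NS replicate 1, whose member mean was the lowest of all arrays (8.85), the median was 0.011. With dentate and CA1 scores as covariates the median was 0.11 with 82 of 94 above 0, against 48.3% of all probesets.

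For some of the 15 members with several probesets, the probesets gave unlike differences or did not follow each other. These were looked up after their values were seen. Correlations between probesets of a gene were taken over the arrays after group means were subtracted. Between AU-act and AI-act the sign differed for Mrps9 (0.099 and -0.064), Mrpl50 (-0.071 and 0.118), Timm29 (0.157 and -0.016) and Timm8a1 (-0.022 and 0.024). Mrps2, a small-subunit protein, differed by 0.023 between AU-act and AI-act at its brightest probeset (mean 10.31). It differed by 0.76 at a second (mean 5.27, adjusted p = 0.0689, limma) and by 0.25 at the dimmest. These are unlike in size but of the same sign, and the dimmer probesets followed the brightest (r = 0.820 for the second and 0.784 for the dimmest). At that second probeset the values ran from 5.37 to 6.02 in AU-S rats and from 3.16 to 6.63 in AI-S rats, and from 4.66 to 5.94 in AU-NS rats and from 2.89 to 5.54 in AI-NS rats. The SD was 0.35 in AU-act rats and 1.00 in AI-act rats, so that the AI-act arrays were the more widely spread. Tomm70 differed by 0.026 at its brightest probeset and by 0.17 at its second (adjusted p = 0.0862), and the probesets did not follow each other over the arrays (r = -0.097). Those of Mrps24 ran against each other (r = -0.611), with the second one dim (mean 5.27, against 8.62), and both had negative differences (-0.13 and -0.086). Those of Tomm20 (r = 0.856) and Mrpl51 (0.760 and 0.609) ran together. No probeset of any member passed in any of the 6 comparisons.

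The genes that work with the members were taken from 5 lists. Of 20 measured import partners (22 listed), 1 rose in AU-act, Hspa9, the mitochondrial Hsp70 that pulls precursors through the inner membrane (0.19, SE 0.058, adjusted p = 0.0481, limma), and none fell. The share over all probesets was 5.00% higher and 0.512% lower, so 1 of 20 is no more than that share. Of 19 measured genes of ribosome assembly and mitochondrial DNA expression (26 listed), 1 fell in AU-act, Mettl15, a methyltransferase of the small subunit's ribosomal RNA (-0.27, SE 0.083, adjusted p = 0.0461), where 0.512% of all probesets fell. It also fell in AU-S against AI-S (-0.45, SE 0.095, adjusted p = 0.0813), where 0.0247% did. With the Gapdh and beta-actin covariate no probeset passed as lower in either comparison, so Mettl15 did not pass there. The hexokinase covariate left no probeset past the threshold in either direction, so neither Hspa9 nor Mettl15 passed with it. After S training no probeset passed with the dentate and CA1 scores as covariates. None of 10 translation factors (12 listed), 12 aminoacyl-tRNA synthetases (20 listed) or 5 ribosomal proteins with other symbols (6 listed) passed. Median differences between AU-act and AI-act were -0.048 for the 94 members, beside 0.0076 for the import partners, -0.058 for assembly and DNA expression, 0.013 for translation factors, -0.0043 for synthetases and 0.0070 for the other ribosomal proteins.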

How the data were processed

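CA3 RNA of 31 rats was hybridized to an Affymetrix rat expression array. The authors removed 1 AI-NS array as an outlier and deposited log2 values made with gcRMA (background correction, quantile normalization and summary of probes), with the version not given in the sources used here. No probeset has a mean under 5.00, so the methods' lower limit of 4 removed none. Groups came from the sample titles. Of 16204 probesets, 12242 had 1 gene symbol, 293 several and 3669 none, and 1 probeset listing several Timm23 symbols was left out. Comparisons used limma 3.58.1 in R 4.3.3 (two-sided, Benjamini-Hochberg over all probesets), checked on simulated data, and SAM (100 permutations) was an alternative. The controls were compared by exact permutation, or with 100000 resamples for pooled groups (scipy 1.17.1). Figures used matplotlib 3.10.9. The members and lists were chosen with earlier results of these data known. Genes named are the core subunits of each machine, the 3 largest and 3 smallest pooled differences, the 3 smallest p in each other comparison and companions that passed, and others are named where a count of few genes calls for it. Arrays give no counts, so their number limits the precision. Alternatives were other intensity limits, scalings, priors, weights, covariates, probesets, a replicate block and each array left out. Behavioural runs were not used here.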

Additional observations from a re-analysis of the deposited data

Results flagged for a closer look

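Of 160 groups of 7 or 8 arrays tested for a lone high or low array (40 results in 4 groups), 11 had one, where chance alone gives about 1 in 20. AI-NS replicate 3 stood above the other AI-NS arrays in 4 ribosomal genes, at 9.61 for Mrpl16 (others 8.93 to 9.19), 9.29 for Mrpl30 (8.83 to 8.96), 8.58 for Mrps16 (7.96 to 8.20) and 10.16 for Mrps21 (9.60 to 9.82). The same array had the highest member mean of AI-NS (9.44), so these 4 values share an array.

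In the other groups a lone array was seen for Mrpl10 in AI-S (replicate 1 at 8.86, others 8.48 to 8.65), Mrps5 in AI-S (replicate 5 at 8.82, others 8.98 to 9.06), Mrpl46 in AU-S (replicate 8 at 4.97, others 5.58 to 6.04), Tomm40 in AU-S (replicate 1 at 9.55, others 9.89 to 10.11) and Timm21 in AU-NS (replicate 1 at 8.78, others 9.06 to 9.20). The 3' minus 5' control difference was high in AU-S replicate 5 (1.72, others 1.41 to 1.52) and in AI-NS replicate 8 (1.92, others 1.47 to 1.64).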

How the results depend on the processing

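No member passed in 4 of the 6 comparisons under any alternative. With the tasks pooled, 1 passed (Timm29) under SAM and without AI-S replicate 7, and after S training 1 passed under SAM (Mrpl30) and 1 without AI-S replicate 7 (Mrps17), so that leaving out an array gave counts of 0 to 1 for each and 0 to 0 elsewhere. The median member difference after S training was 0.093 with the hexokinase covariate (0.035 over all probesets), and the cause was not tested. After NS training the median was -0.0052 in the main fit, 0.0068 with array weights and 0.0043 with the replicate block. Leaving out each array moved the median over -0.063 to -0.025 with the tasks pooled (highest without AU-NS replicate 1), -0.11 to -0.048 after S, -0.039 to 0.041 after NS, 0.011 to 0.083 for AU-S against AU-NS, 0.099 to 0.19 for AI-S against AI-NS and -0.13 to -0.039 for the difference of differences, the last 2 ends without AU-NS replicate 1 and AU-NS replicate 5. Taken alone after S training, the Gapdh control differed by -0.034 (exact permutation test, p = 0.39), the beta-actin control by -0.18 (exact permutation test, p = 0.0232) and the hexokinase control by -0.40 (exact permutation test, p = 0.000777), beside -0.11 for Gapdh and beta-actin together (exact permutation test, p = 0.0502).

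The replicate numbers share no stated litter or day. After group means were subtracted, same-numbered arrays correlated between -0.391 and 0.311, with at most 2 pairs above 0.1 in any pair of groups. No general pairing by number was seen, but these values cannot exclude a shared run or day. With the replicate block, no member passed in any comparison and the pooled median was -0.050, with 553 higher and 38 lower probesets against 810 and 83 without it. Array weights gave 1132 and 155, SAM 1317 and 278, and the control covariate 1 and 0. With 7 to 8 rats a group, the 95% interval of a member within a task or phenotype had a median half-width of 0.191 to 0.216. These intervals are unadjusted, so the half-width is not the difference that the adjusted threshold could detect. Larger differences also did not pass, such as 0.28 for Mrps25 in AU-S against AU-NS.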
